A study of Homo sapiens with 4 samples.

Results

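Collagens and mesenchymal matrix genes were examined in microglia-like cells (iMGL) derived from WTC11, a human iPSC line in wide use. The set held the 44 protein-coding genes whose symbol has the form COL, number, A, number, and 14 further genes of the matrix, of fibroblasts and of contractile cells, 58 of the 35584 named genes in the tables, 19933 of which are protein-coding. S1KO cells were edited to lack SHIP1, the inositol 5-phosphatase encoded by INPP5D, and WT cells of the same line were not edited, with 2 libraries of poly-A RNA in each genotype. The design text states that 2 clones per genotype were included and that differentiation was compared between the genotypes. Which clone each numbered library came from is not labelled, and p-values measure only the spread between these libraries, which may be technical. The question asked of these genes was how WT 1 stood against S1KO 1, S1KO 2 and WT 2, and which members were expressed in libraries other than WT 1.

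Collagens are secreted as trimers of chains that wind around each other, and the winding needs glycines at regular intervals along each chain. Fibril-forming types I, III and V give connective tissue its strength, type IV forms the sheet of basement membranes, and type VI forms beaded microfibrils at the cell surface. Fibroblasts, smooth muscle cells and pericytes are the main producers. Macrophages and microglia are known to take up and degrade collagen, and to make fibronectin, SPARC and chains of types VI and VIII.

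The libraries held 22792480 (S1KO 1), 22334585 (S1KO 2), 21516813 (WT 1) and 25927881 (WT 2) estimated counts. Mitochondrial genes took 52.3% and 39.2% of them in S1KO, against 14.2% and 18.9% in WT. INPP5D, the edited gene, stood at 81.0 and 97.6 CPM in the S1KO libraries against 355.6 and 441.0 in the WT libraries (CPM stands throughout for counts relative to library size after TMM scaling, which centres most genes on no change). It fell by 2.16 on the log2 scale (SE 0.21, edgeR quasi-likelihood adjusted p = 0.0183). Without S1KO 1 (-2.04, adjusted p = 0.685) or S1KO 2 (-2.31, adjusted p = 0.310) it was not called, in fits that called 0 of all genes. The 12 myeloid markers listed for the label were present in all 4 libraries, with a summed level of 2917 and 2978 CPM in S1KO and 3994 and 4438 in WT. Of the 12, 1 was called lower in S1KO and none higher, against 0.15% and 0.787% of all genes tested. The median log2 fold change of the 12 was -0.73, against -0.02 over all genes tested. P2RY12, a microglial purine receptor, fell by 1.45 on the log2 scale (SE 0.22, edgeR adjusted p = 0.0482); leaving out S1KO 1 (-1.42, adjusted p = 0.685) or S1KO 2 (-1.51, adjusted p = 0.441) ended that call too, as did protein-coding transcripts only (adjusted p = 0.0971), the effective length offset (0.0532) and leaving out mitochondrial genes and their copies (0.0513).

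WT 1 held most of the matrix transcripts. The 58 genes took 1.06% of its nuclear counts (95% Wilson interval 1.06 to 1.07), against 0.0523% in S1KO 1 (0.0509 to 0.0536), 0.0578% in S1KO 2 (0.0565 to 0.0591) and 0.0309% in WT 2 (0.0301 to 0.0316). These intervals cover counting error only. On TPM, which counts per length, the shares were 0.468% in WT 1, against 0.0251% in S1KO 1, 0.0325% in S1KO 2 and 0.0186% in WT 2. COL1A1 and FN1 made up 38.9% and 24.1% of the members' counts in WT 1. In WT 2 the leading genes were COL9A2 (30.6%) and COL26A1 (20.1%), in S1KO 1 COL6A2 (30.3%) and COL6A1 (20.4%), and in S1KO 2 COL9A2 (20.8%) and COL6A2 (17.4%). In these bulk samples fewer cells of a type and less RNA per cell cannot be told apart.

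Of the 48 members with at least 10 estimated counts in 1 library, 25 were more than 4-fold higher in WT 1 than in each of the other 3 libraries. Over all 15289 protein-coding genes with that many counts the share was 2.92%. With 1 library on one side this is a description without a replicate check. Against its highest other library, the ratio of each of the 25 ran from 11.5 to 651 with a median of 72.3, counting a library at 0 as 3 counts. COL8A2 lay just under the threshold, at 3.92, and COL2A1 was the lowest above it, at no less than 11.5. The median ratio was 11.96 over the 48 members and 0.831 over all genes. The 25 genes summed to 6588 CPM in WT 1, against 32.2 in S1KO 1, 60.4 in S1KO 2 and 18.1 in WT 2, and all other members to 373.0 CPM, against 347.9, 305.4 and 187.4. Where any count remained, their median level was 0.847% of that of WT 1 in S1KO 1 (19 genes), 1.16% in S1KO 2 (21 genes) and 0.348% in WT 2 (17 genes). No member was 4-fold above every other library in S1KO 1, S1KO 2 or WT 2, where the shares over all genes were 0.203%, 0.0785% and 0.432%.

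**Figure D1:**
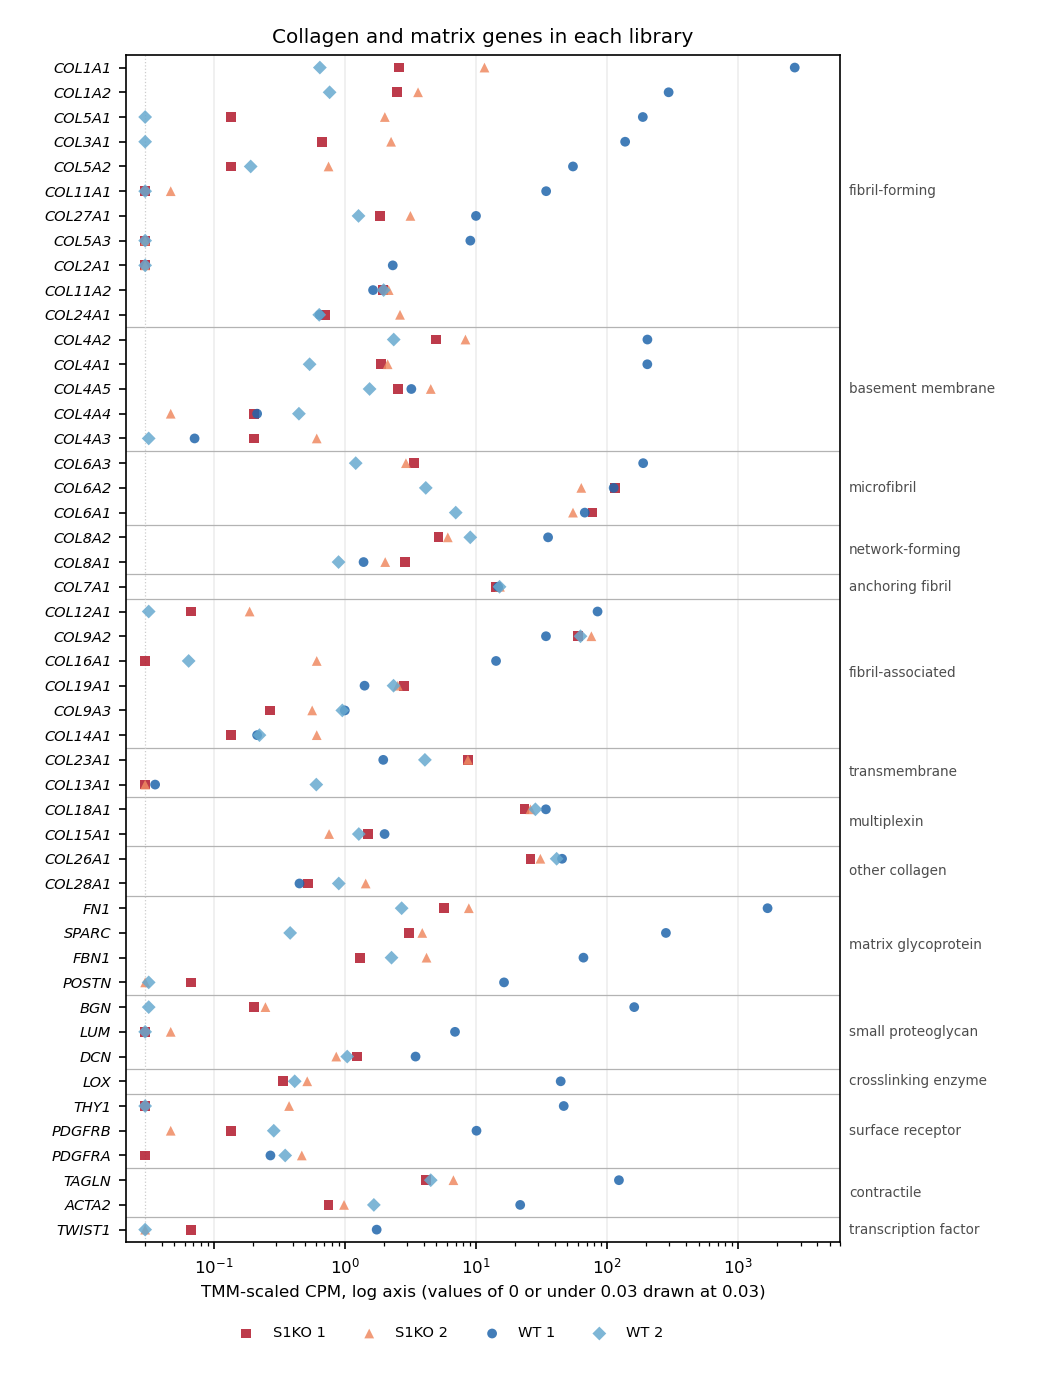
Level of the 48 members with at least 10 estimated counts in 1 library, as TMM-scaled CPM on a log axis, with 1 point per library and genes grouped by class. WT 1 lies far to the right of the other 3 libraries for COL1A1 (2709 CPM) and FN1 (1681 CPM), while for COL6A1 and COL6A2 it lies beside both S1KO libraries and WT 2 lies apart at 7.02 and 4.15 CPM.

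**Figure D2:**
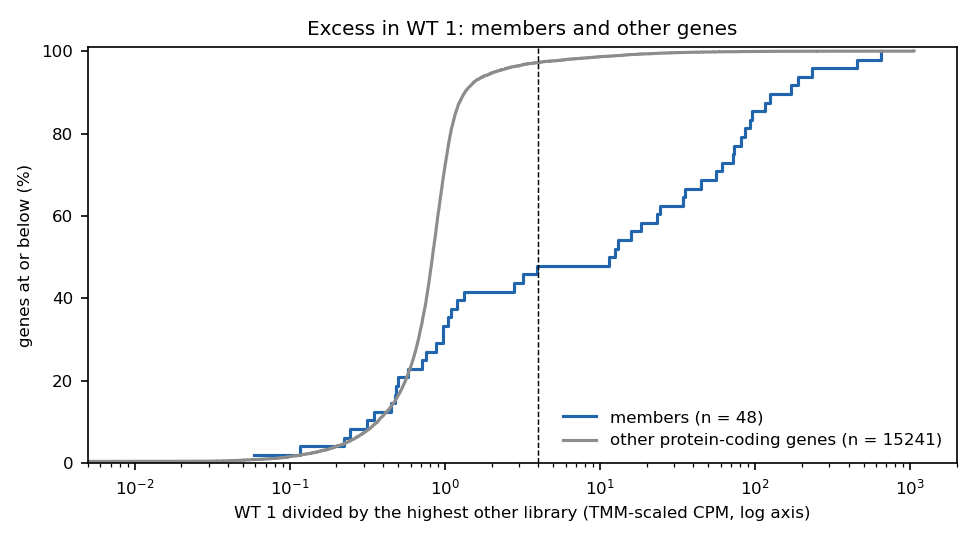
Cumulative share of genes against the ratio of WT 1 to the highest other library, for the 48 members and for the other protein-coding genes with that many counts, on a log axis. The dashed line marks 4-fold, which 25 members exceed; the members' curve leaves that of the other genes near a ratio of 1.

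Among the fibril-forming collagens, type I stood out in WT 1. COL1A1, the α1 chain of type I collagen (chromosome 17, 50183289 to 50201632 in GRCh38, minus strand), had 2709 CPM in WT 1, against 2.59 in S1KO 1, 11.6 in S1KO 2 and 0.646 in WT 2. The ratio of WT 1 to S1KO 2, the next library, was 233 (95% counting interval 205 to 264). WT 1 stood alone, and the other 3 libraries themselves spanned an 18.0-fold range (11.6 to 30.4) between S1KO 2 and WT 2. COL1A2, which encodes the partner chain, had 295.6 CPM in WT 1, against 2.50, 3.62 and 0.766 in S1KO 1, S1KO 2 and WT 2.

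COL3A1, the chain of type III collagen, had 137.7 CPM in WT 1, against 0.674 in S1KO 1, 2.26 in S1KO 2 and 0 counts in WT 2. COL5A1 and COL5A2, whose chains start collagen fibrils, had 187.9 and 55.1 CPM in WT 1 and at most 2.02 and 0.752 in the other libraries. COL11A1, known from cartilage, had 34.4 CPM in WT 1 and at most 1 count elsewhere. COL5A3 had 254 counts and COL2A1, the main collagen of cartilage, 65 counts in WT 1, and both were at 0 in the other 3 libraries. WT 1 was therefore at least 44.9-fold higher for COL5A3 and at least 11.5-fold higher for COL2A1, taking 3 counts per library as the limit that 0 allows.

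As sums over transcripts, the remaining fibril-forming genes were not over 4-fold higher in WT 1. COL27A1 was highest there, with 10.03 CPM in WT 1, 1.85 in S1KO 1, 3.17 in S1KO 2 and 1.27 in WT 2. Its ratio of WT 1 to S1KO 2, the next library, was 3.16 (counting interval 2.43 to 4.21). The coding transcript COL27A1-201 had 246.4 counts in WT 1, against 13.6, 29.5 and 9 in S1KO 1, S1KO 2 and WT 2. COL11A2 lay between 1.64 and 2.16 CPM in all 4 libraries, and COL24A1 was highest in S1KO 2, at 2.64 CPM. Per length, COL1A1 reached 696.9 TPM and COL1A2 117.3 TPM in WT 1, a ratio of 5.94. COL1A1 ranked 159th and FN1 80th by TPM among protein-coding genes of that library.

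Summed over transcripts, type IV collagen showed the same excess in WT 1 for its main chains only. COL4A1 and COL4A2 lie head to head on chromosome 13, and their chains form the common trimer of basement membranes. COL4A1 had 203.3 CPM in WT 1, against 1.88 in S1KO 1, 2.12 in S1KO 2 and 0.539 in WT 2. COL4A2 had 203.6 CPM in WT 1, against 4.96, 8.33 and 2.36. Per length, the TPM of COL4A1, summed over all transcripts, was 0.883 of that of COL4A2 in WT 1, and 0.512, 0.383 and 0.435 of it in S1KO 1, S1KO 2 and WT 2. Protein-coding transcripts held only 35.5% of COL4A1 counts and 14.6% of COL4A2 counts in WT 1. A retained-intron transcript led both genes there, at 64.3% and 56.3%. In S1KO 1, S1KO 2 and WT 2 coding transcripts held 92.8%, 82.7% and 100% for COL4A1 and 88.1%, 77.3% and 81.1% for COL4A2. The ratio between coding transcripts of the 2 genes was not tested. COL4A5 stayed between 1.55 and 4.53 CPM as a sum and was highest in S1KO 2. Its coding transcript COL4A5-202 had 35.7 counts in WT 1 and 0 in S1KO 1, S1KO 2 and WT 2. COL4A3 and COL4A4 reached at most 14 counts in any library, and COL4A6 was at 0 in all. The interval of 126 bases between both RefSeq starts (chr13:110307158-110307283, GRCh38.p14, shown on the strand of COL4A2) is given because both genes are read outward from it; the capitals mark a CCAAT motif.
COL4A2 to COL4A1 interval: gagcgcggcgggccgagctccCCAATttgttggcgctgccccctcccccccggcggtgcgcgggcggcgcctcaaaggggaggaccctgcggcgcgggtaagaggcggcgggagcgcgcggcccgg

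The chains of type VI collagen parted from each other. COL6A1 (chromosome 21, 45981737 to 46005050, plus strand) had 77.6 CPM in S1KO 1 and 55.1 in S1KO 2, against 67.8 in WT 1 and 7.02 in WT 2. COL6A2 (chromosome 21, 46098097 to 46132849, plus strand) had 115.0 and 63.7 CPM in the S1KO libraries against 112.6 and 4.15 in the WT libraries. Both genes were thus high in 3 libraries and low in WT 2 alone. COL6A3, whose chain joins these in the common trimer, had 189.0 CPM in WT 1, against 3.38 in S1KO 1, 2.93 in S1KO 2 and 1.21 in WT 2. It was high in WT 1 alone, as the type I genes were.

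Per length, WT 1 had 36.3 TPM of COL6A1, 54.5 of COL6A2 and 38.7 of COL6A3, and each pair of chains was within 2-fold. The TPM of COL6A3 was 0.0234 of that of COL6A1 in S1KO 1 and 0.0229 in S1KO 2, against 1.06 in WT 1 and 0.103 in WT 2. S1KO 1 exceeded WT 2 by 27.7-fold for COL6A2 (counting interval 23.2 to 33.4) and by 11.0-fold for COL6A1 (9.55 to 12.8). S1KO 2 exceeded it by 15.4-fold (12.8 to 18.5) and 7.84-fold (6.79 to 9.10). The upstream sequences of COL6A2 and COL6A3 are shown because these genes parted in both S1KO libraries. They are the 250 bases before the RefSeq start (GRCh38.p14), each on the strand of its gene, with TATAAA and CCAAT motifs in capitals: chr21:46097862-46098111, plus strand, and chr2:237414165-237414414, minus strand.
COL6A2 upstream: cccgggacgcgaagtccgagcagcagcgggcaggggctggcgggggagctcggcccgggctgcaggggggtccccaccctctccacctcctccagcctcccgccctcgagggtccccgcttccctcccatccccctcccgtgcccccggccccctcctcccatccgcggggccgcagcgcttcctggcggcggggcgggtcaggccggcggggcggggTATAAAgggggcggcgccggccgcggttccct
COL6A3 upstream: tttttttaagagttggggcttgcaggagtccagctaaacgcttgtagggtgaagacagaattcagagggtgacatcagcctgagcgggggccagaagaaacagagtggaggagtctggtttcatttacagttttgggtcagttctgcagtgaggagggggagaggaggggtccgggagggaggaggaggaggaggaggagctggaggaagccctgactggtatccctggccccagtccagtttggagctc

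COL6A2 holds TATAAA near its start, and neither motif is in the COL6A3 window. Over the members as a whole, 57 windows of 41 genes could be searched for TATAAA and CCAAT on both strands; LOX has several overlapping windows, and those of COL4A1 and COL4A2 share the interval above. TATAAA was in 1 of 20 windows of members over 4-fold higher in WT 1 and in 8 of 37 windows of the other members, and in 10.8% of 34943 windows of all genes. CCAAT was in 7 of 20, in 9 of 37 and in 32.0% of all windows. A match is a string of letters and not a binding site.

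**Figure D3:**
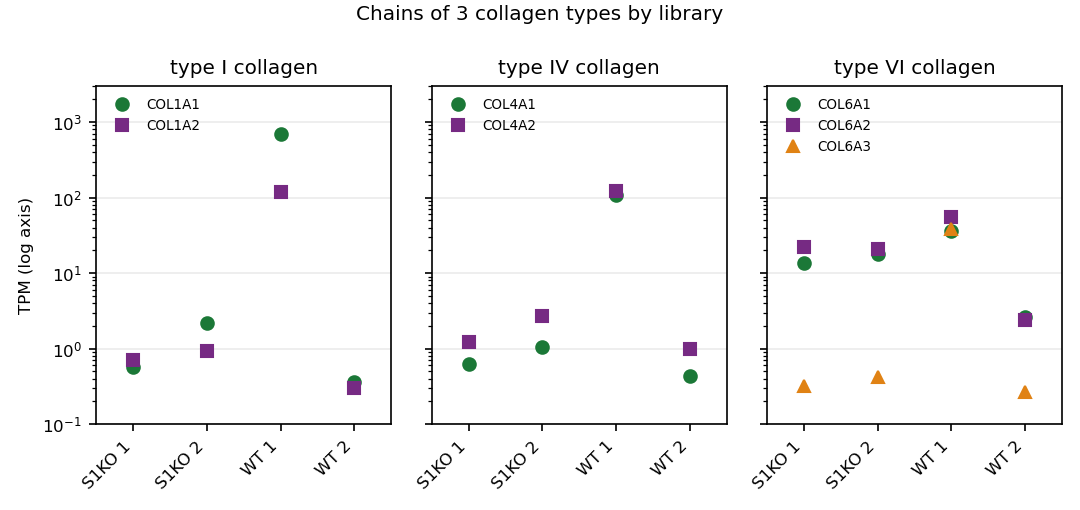
TPM of the chains of collagen types I, IV and VI in each library on a log axis, 1 point per library. COL6A1 and COL6A2 stand between 13.6 and 54.5 TPM in S1KO 1, S1KO 2 and WT 1 and at 2.63 and 2.36 in WT 2, whereas COL6A3 is above 1 TPM in WT 1 alone.

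Among the other collagens, COL12A1 and COL16A1, which attach to fibrils, followed type I. COL12A1 had 84.8 CPM in WT 1 and at most 0.188 elsewhere, and COL16A1 had 14.3 in WT 1 and at most 0.611 elsewhere. COL8A2, a network-forming chain, had 35.6 CPM in WT 1, against 5.19 in S1KO 1, 6.11 in S1KO 2 and 9.07 in WT 2. COL8A1 was low throughout, between 0.897 and 2.88 CPM. Its protein-coding transcripts held 0% of its counts in S1KO 1, WT 1 and WT 2, and 9.24% in S1KO 2.

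The matrix glycoproteins included FN1 and SPARC, which macrophages and microglia can express, but here both were found mainly in WT 1. FN1, encoding fibronectin (chromosome 2, 215360440 to 215436172, minus strand), had 1681 CPM in WT 1, against 5.73 in S1KO 1, 8.84 in S1KO 2 and 2.72 in WT 2. SPARC, a collagen-binding glycoprotein, had 281.9 CPM in WT 1, against 3.10, 3.90 and 0.383 in S1KO 1, S1KO 2 and WT 2. FBN1, the microfibril protein fibrillin, had 66.2 CPM in WT 1 and at most 4.21 elsewhere as a sum over transcripts. FBN1-204, annotated for nonsense-mediated decay, held 79.2% of its counts in WT 1. The protein-coding transcripts of FBN1 held 18.5% there, against 89.9% in S1KO 1, 89.9% in S1KO 2 and 71.1% in WT 2. POSTN, or periostin, had 16.4 CPM in WT 1 and at most 1 count elsewhere.

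Other mesenchymal members divided. BGN, the small proteoglycan biglycan, had 161.5 CPM in WT 1 and at most 0.248 in the other libraries, a ratio of 651 (counting interval 294 to 2117). LUM, or lumican, had 6.93 CPM in WT 1 and at most 1 count elsewhere. DCN, or decorin, was low in WT 1 as well, at 3.47 CPM, against 1.24 in S1KO 1, 0.861 in S1KO 2 and 1.04 in WT 2. Its transcript DCN-202 had 69.7 counts in WT 1 and 0 in S1KO 1, S1KO 2 and WT 2. DCN-217 held 77.9%, 66.8% and 75.1% of counts in S1KO 1, S1KO 2 and WT 2, against 7.72% in WT 1.

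LOX, which crosslinks collagen, had 44.4 CPM in WT 1 and at most 0.517 elsewhere. The smooth muscle genes TAGLN and ACTA2 had 123.5 and 21.8 CPM in WT 1 and at most 6.74 and 1.67 elsewhere. The surface protein THY1 had 46.8 CPM in WT 1 and at most 8 counts elsewhere. PDGFRB, the platelet-derived growth factor receptor of pericytes and smooth muscle, had 10.1 CPM in WT 1 and at most 0.287 elsewhere. PDGFRA, the receptor of many fibroblasts, was not raised in WT 1, with 7.58 counts there, 0 in S1KO 1, 10 in S1KO 2 and 11 in WT 2. TWIST1, a mesenchymal transcription factor, had 49 counts in WT 1 and at most 1 elsewhere.

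On sums over transcripts, a group of 12 collagens was measured in all 4 libraries without a 4-fold excess in WT 1. Its genes had at least 1 CPM in each of S1KO 1, S1KO 2 and WT 2. It comprised COL6A1, COL6A2, COL8A2, COL27A1 and COL11A2 from above, and COL4A5, COL7A1, COL9A2, COL18A1, COL19A1, COL23A1 and COL26A1. Of the genes named in textbooks for macrophages or microglia (FN1, SPARC and 5 chains of types VI and VIII), only COL6A1, COL6A2 and COL8A2 were in this group. COL9A2, a fibril-associated chain of cartilage, had 60.0 and 76.1 CPM in S1KO against 34.3 and 62.9 in WT. Its partner COL9A3 had at most 1.001 CPM in any library. COL7A1, the collagen of anchoring fibrils in skin, was nearly level as a sum, at 14.2 and 15.3 CPM in S1KO against 14.8 and 15.2 in WT. Its coding transcript COL7A1-201 held 5.96% and 9.05% of these counts in S1KO against 26.3% and 33.8% in WT, which was not tested. COL18A1, the source of endostatin, had 23.5 and 26.1 CPM in S1KO against 34.2 and 28.5 in WT. COL26A1 had 26.1 and 31.1 CPM in S1KO against 45.5 and 41.3 in WT. COL19A1, a fibril-associated chain, was low, at 2.83 and 2.54 CPM in S1KO against 1.42 and 2.36 in WT.

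As sums over transcripts, COL4A2, COL6A3, FBN1, FN1 and TAGLN were over 4-fold higher in WT 1 and also reached 1 CPM in every other library. Another 11 members had at least 10 counts in 1 library without either property, at most 3.47 CPM anywhere. Among these COL15A1, a relative of COL18A1, had 1.51 and 0.760 CPM in S1KO against 2.01 and 1.28 in WT, and COL28A1 had 0.523 and 1.44 against 0.451 and 0.900. Of the 10 members left, 7 had at most 9 counts in any library and 3 (COL22A1, COL4A6 and COL6A5) were at 0 in all 4.

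Transcripts of the same gene differed between WT 1 and the rest. COL1A1 was carried by the coding transcript COL1A1-201 in every library, at 88.2% and 95.2% of its counts in S1KO and 98.1% and 89.0% in WT. For FBN1, the coding transcript FBN1-205 held 1.82% of counts in WT 1 but 84.5% in S1KO 1, 89.9% in S1KO 2 and 59.3% in WT 2. COL4A2-213 held 0.690% of COL4A2 counts in WT 1, against 69.3%, 62.6% and 60.8% in S1KO 1, S1KO 2 and WT 2. COL4A1-209 held 0.430% in WT 1, against 88.9%, 64.5% and 94.0%.

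The low counts of these 3 genes outside WT 1 thus came mostly from transcripts that were minor in WT 1. Among 12 members over 4-fold higher in WT 1 with at least 30 counts summed over the other 3 libraries, the leading transcript of WT 1 led there too in 6 and not in the other 6. COL18A1-204, a long form, had 186.5 counts in WT 1 and at most 1.72 elsewhere, while the shorter COL18A1-201 held 70.9% to 87.4% of the counts in every library. COL7A1-201, the coding transcript of 9276 bases, held 5.96% and 9.05% of COL7A1 counts in S1KO against 26.3% and 33.8% in WT; most of the rest was COL7A1-210, a retained-intron transcript of 5807 bases. COL4A5 consisted entirely of COL4A5-211, a transcript annotated for nonsense-mediated decay, outside WT 1, where it held 27.9%. COL6A1-206, annotated as a processed transcript, held 24.98% and 44.2% of COL6A1 counts in S1KO against 48.1% and 4.4% in WT, while COL6A2-201, a coding transcript, held 91.8% and 94.9% of COL6A2 counts against 94.6% and 83.8%. For COL6A3 the retained-intron transcript COL6A3-212 held 42.8% of counts in WT 1, against 76.5%, 90.1% and 60.2% in S1KO 1, S1KO 2 and WT 2. Its coding transcript COL6A3-209 held 40.8% in WT 1 and at most 0.658% elsewhere. Retained-intron transcripts held 18.8% of the counts of the 25 members in WT 1, against 29.2%, 25.2% and 32.3% in S1KO 1, S1KO 2 and WT 2, and 8.88%, against 3.52%, 6.32% and 9.62%, over all protein-coding genes. These divisions are estimates by kallisto between transcripts that share exons, and they were not tested.

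S1KO was next compared with WT in the deposited counts. Of the 58 members 33 passed the filter on low counts, which asks for counts in 2 libraries and so dropped 10 of the 25 members that were high in WT 1 alone. Not 1 of the 33 was called by the quasi-likelihood test of edgeR at 0.05 after adjustment, where 0.787% of all 15377 genes were called higher in S1KO and 0.15% lower. At an unadjusted p under 0.05 there were 16 of the 33 members, against 19.5% of all genes. DESeq2 called 1 higher (COL23A1) and 1 lower (COL8A2), against 4.25% and 3.28% of all genes. Without the filter edgeR called 1 of 55 members higher (COL23A1) and 25 lower, against 2.6% and 3.45% of all genes. On log2(TPM + 1), limma called 0 of the 33 higher and 19 lower, against 0.865% and 17.9% of all genes, and the median log2 change over all genes was -0.78 on that scale. On simulated counts for this comparison with 15377 genes, the edgeR test called 31% of genes changed 2-fold and 85% of those changed 4-fold. Changes were put only into genes with higher mean counts, and the spread followed the trend of genes at that level. These shares say nothing of members in which WT 1 and WT 2 lay far apart, such as COL1A1 (log2 SE 2.87). The median log2 fold change was -1.19 over the 33 members and -0.02 over all genes tested.

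The large negative fold changes rested on WT 1. The log2 fold change of COL1A1 was -7.55 (SE 2.87, edgeR adjusted p = 0.226) with all 4 libraries and 3.49 (adjusted p = 8.38e-07) without WT 1. FN1 was at -6.84 (SE 2.36, adjusted p = 0.199) and at 1.43 without WT 1 (adjusted p = 0.0113). COL6A3 was at -4.92 (SE 1.84, adjusted p = 0.220) and at 1.37 without it (adjusted p = 0.126). COL4A1, at -5.66 (SE 2.10, adjusted p = 0.217), and TAGLN, at -3.54 (SE 1.30, adjusted p = 0.216), also turned positive without WT 1, to 1.88 and 0.28. ACTA2 was at -3.74 (SE 1.14, adjusted p = 0.163) and kept its sign, at -0.93 without WT 1.

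Without WT 1 edgeR called 10 of 38 tested members higher in S1KO and none lower, against 5.99% and 6.55% of all genes; the lone WT library is there assumed to vary like the S1KO libraries. Those called were COL1A1, COL1A2, COL3A1, COL4A2, COL5A1, COL6A1, COL6A2, COL23A1, FN1 and SPARC. Without WT 2 it called 28 of 46 tested members lower and 2 higher (COL9A2 and COL23A1), against 7.33% and 5.93% of all genes. COL6A1 and COL6A2 depended on WT 2 instead. The log2 fold change of COL6A1 was 0.83 (SE 0.86, adjusted p = 0.642), with 3.24 without WT 1 and -0.03 without WT 2. That of COL6A2 was 0.62 (SE 1.16, adjusted p = 0.808), with 4.42 without WT 1 and -0.33 without WT 2.

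**Figure D4:**
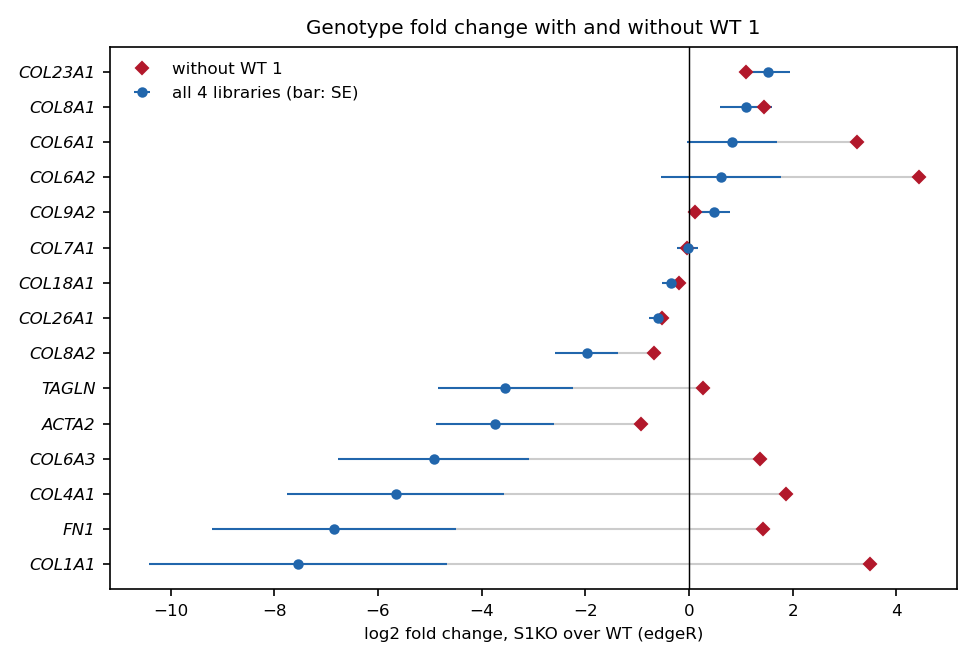
Log2 fold change of S1KO over WT from edgeR for 15 members, with all 4 libraries (circles, bar 1 SE) and without WT 1 (diamonds). COL1A1 lies at -7.55 with all libraries and at 3.49 without WT 1, while COL7A1, COL18A1, COL23A1 and COL26A1 move little.

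For members found in all libraries the genotypes differed by less. COL23A1, a transmembrane collagen, averaged 8.73 ± 0.04 CPM in S1KO and 3.03 ± 1.499 in WT (SD, n = 2 each), for a log2 difference of 1.52 (SE 0.42, edgeR adjusted p = 0.135). Both S1KO libraries lay above both WT libraries, and its sign was positive in every alternative. COL26A1 averaged 28.6 ± 3.5 CPM in S1KO and 43.4 ± 2.9 in WT, for a log2 difference of -0.60 (SE 0.18, adjusted p = 0.159). COL8A2 averaged 5.65 ± 0.65 CPM in S1KO and 22.3 ± 18.7 in WT (-1.98, SE 0.60, adjusted p = 0.164), and was at -0.68 without WT 1. COL18A1 was at -0.34 (SE 0.19, adjusted p = 0.382) and COL9A2 at 0.49 (SE 0.30, adjusted p = 0.429). COL8A1 was at 1.10 (SE 0.50, adjusted p = 0.291) and COL7A1 at -0.02 (SE 0.20, adjusted p = 0.964). Both COL8A1 and COL7A1 are sums held mostly by transcripts not annotated as coding. Of the 33 tested members 5 had both S1KO levels under both WT levels and 4 had them above, where 25.8% and 26.0% of all genes did so.

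WT 2 stood apart for a further group. After their values were seen, 6 members were found more than 4-fold lower in WT 2 than in every other library: COL6A1, COL6A2, COL1A1, COL3A1, SPARC and BGN. Over all protein-coding genes with 10 counts the share was 0.464%. COL1A1 lay just over the threshold, at a ratio of 4.02 between S1KO 1 and WT 2 (counting interval 2.28 to 7.27). BGN had 1 count in WT 2, and the counting interval of its ratio between S1KO 1 and WT 2, 0.508 to 332, includes 1. Its coding transcripts held 0% of its counts in S1KO 1, S1KO 2 and WT 2. COL3A1 was at 0 in WT 2, which was counted as 3. Its 10 counts in S1KO 1 all came from COL3A1-205, a retained-intron transcript. Apart from COL6A1 and COL6A2, these genes had at most 11.6 CPM in either S1KO library.

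The enzymes that build collagen were present in all libraries. Of 21 genes for chain hydroxylation, folding and export none was called in either direction, against 0.787% of all genes higher and 0.15% lower. On the negative side were 18 of the 21. Their median log2 fold change was -0.63, against -0.02 over all genes. P4HB, a subunit of prolyl hydroxylase, had 166.9 and 194.6 CPM in S1KO against 358.8 and 230.7 in WT. PPIB, a prolyl isomerase, had 142.5 and 149.2 CPM against 320.3 and 235.5, and COLGALT1, which glycosylates collagen, 167.4 and 211.1 against 274.1 and 244.3. SEC13, a coat protein of export vesicles, had 57.4 and 57.3 CPM against 91.9 and 58.2. P4HA3 and FKBP10 were the 2 of the 21 that were over 4-fold higher in WT 1. SERPINH1 lay just under that threshold, at a ratio of 3.73. It had 119.2 CPM in WT 1, against 21.5 in S1KO 1, 23.1 in S1KO 2 and 32.0 in WT 2.

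Genes for maturation and crosslinking divided. Of 12 genes 10 had at least 10 counts and 5 of these were over 4-fold higher in WT 1 (BMP1, ADAMTS14, LOXL1, LOXL2 and LOXL4). LOXL1, a relative of LOX, had 50.1 CPM in WT 1 and at most 3 counts elsewhere, and LOXL2 had 52.5 CPM in WT 1 and at most 2.10 elsewhere. LOXL3 had 70.0 and 99.8 CPM in S1KO against 80.2 and 98.95 in WT. PCOLCE, an enhancer of procollagen cleavage, had 9.97 and 12.6 CPM against 16.8 and 7.98. None of the 7 that passed the filter was called, against 0.787% of all genes higher and 0.15% lower. The median log2 fold change of the 7 was -0.08, against -0.02 over all genes.

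Of 9 genes for collagen breakdown, 5 passed the filter. Of these 1 was called higher and none lower in S1KO, against 0.787% and 0.15% of all genes tested. MMP9, a secreted gelatinase of macrophages, had 270.9 and 155.2 CPM in S1KO against 51.1 and 44.5 in WT, and rose by 2.16 on the log2 scale (SE 0.29, edgeR adjusted p = 0.0405). The call did not hold with protein-coding transcripts only (2.14, adjusted p = 0.0808) or on log2(TPM + 1) by limma (1.11, adjusted p = 0.0779). It was also absent with the replicate number as a block (2.10, adjusted p = 0.0541) and without S1KO 1 (1.69, adjusted p = 0.652) or S1KO 2 (2.49, adjusted p = 0.25), where 0 of all genes were called. MMP14, a membrane-bound collagenase, had 291.3 and 345.4 CPM in S1KO against 576.6 and 494.2 in WT (adjusted p = 0.129). MRC2, a receptor that takes up collagen, had 342.4 and 462.5 against 537.2 and 586.9, and CTSK, a lysosomal collagenase, 11.3 and 14.1 against 9.87 and 13.5. Of 12 receptors for collagen and fibronectin none of the 11 tested was called, against the same shares of all genes. LAIR1, an inhibitory collagen receptor of immune cells, had 205.7 and 226.9 CPM in S1KO against 176.8 and 190.2 in WT, ITGB1, the shared integrin β chain, 74.5 and 64.7 against 141.8 and 132.8, ITGA5 28.1 and 30.7 against 54.0 and 51.9, and OSCAR 61.1 and 69.9 against 80.35 and 114.1. ITGA11 and DDR2, collagen receptors of fibroblasts, were over 4-fold higher in WT 1.

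Markers of mesenchymal cells outside the set moved with WT 1. Of 23 such genes 20 had at least 10 counts and 17 of these were over 4-fold higher in WT 1; their summed level was 722.8 CPM in WT 1, against 126.1 in S1KO 1, 140.5 in S1KO 2 and 69.8 in WT 2. CTGF, now named CCN2, had 80.9 CPM in WT 1 and at most 0.517 elsewhere, CALD1, a smooth muscle actin-binding protein, 86.0 and at most 8.74, and MYL9, a myosin light chain, 54.4 and at most 0.876. TPM2, a tropomyosin, had 87.7 and 102.4 CPM in S1KO against 125.0 and 29.5 in WT. FAP was at 0 outside WT 1, TWIST2 and TCF21 were at most at 0.386 CPM in all libraries, and 5, 6 and 5 of the 23 were at 0 counts in S1KO 1, S1KO 2 and WT 2. The part that other cells played in the WT 1 levels was not tested.

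No gene of the myeloid, endothelial, epithelial, pluripotent, haematopoietic progenitor or erythroid lists was over 4-fold higher in WT 1. The endothelial markers summed to 5.72 CPM in WT 1, against 5.14 in S1KO 1, 5.48 in S1KO 2 and 4.41 in WT 2, and the epithelial ones to 42.1, against 24.6, 23.5 and 32.3. Pluripotent markers summed to 16.9, against 15.8, 18.6 and 14.2, progenitor markers to 2.53, against 11.6, 9.26 and 9.80, and erythroid and megakaryocyte markers to 7.28, against 13.1, 11.5 and 10.6. TUBB3 alone of the 6 neural markers was over 4-fold higher in WT 1, at 7.25 CPM, as was TNNT2 of the muscle markers, at 14.4 CPM. The neural list summed to 10.4 CPM in WT 1, against 6.51, 6.92 and 3.24, and the muscle list to 15.1, against 2.94, 3.61 and 1.404, with DES, ACTC1 and MYL7 at 9 counts or fewer in WT 1 and at 0 elsewhere.

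The 10 genes outside the set whose pattern was most like this one were chosen as protein-coding genes of at least 5 TPM in WT 1 by the ratio of WT 1 to the highest of the other 3 libraries, over 4 libraries. They were CYR61 (now CCN1), KRT17, IGFBP3, LOXL1, IGFBP5, MFAP4, CDH2, CTGF, IGFBP7 and CRIP2, with ratios from 1058 to 127. IGFBP3, which binds insulin-like growth factors, was the most abundant of these per length, at 867.1 TPM in WT 1, against 0.286 in S1KO 1, 0.429 in S1KO 2 and 2.79 in WT 2. KRT17, a keratin that was not on the epithelial list, had 309.8 CPM in WT 1 and at most 0.404 elsewhere. Its family has near-identical copies between which reads can be divided.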

How the data were processed

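Poly-A libraries of 2 S1KO and 2 WT samples were sequenced as paired reads of 150 bases, per the labels' protocols, and kallisto and hg38 are named in the submitters' processing notes. Neither the kallisto version nor the transcript set is given in the sources used here, nor is strand, so for members overlapping an opposite gene (ACTA2, BGN, COL10A1, COL18A1, COL19A1, COL9A3, LOX, TAGLN, and COL4A1 with COL4A2) reads of both cannot be told apart; PDGFRA overlaps AC058822.1 on its own strand. The deposited files give, per the file headers, each transcript's estimated count and TPM. TPM keeps mitochondrial transcripts in its total.

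Transcripts were summed to genes with GENCODE 29 (169797 by identifier, 15521 by symbol; 3435 unnamed, at most 0.643% of a library's counts, left out). Rounded sums were filtered with filterByExpr, scaled by TMM and tested with edgeR 4.0.16 (glmQLFTest, two-sided, Benjamini-Hochberg at 0.05, genotype only) in R 4.3.3; on simulated data it called 9 unchanged genes among 125. WT 1 was compared with single libraries by ratio, with exact conditional binomial intervals. Nuclear counts leave out genes of the mitochondrial genome. Alternatives used DESeq2 1.42.0, limma 3.58.1, other filters, scalings, pseudocounts and left-out libraries. In every pair of libraries at least 261 genes lay over 4-fold apart.

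Members of at least 1 TPM in a library, the 10 most similar non-members, and the 4 genes of highest mean TPM in the pathway, mesenchymal and other lists that are named were reported; some genes past a threshold are also named beside their count. The members and lists were chosen with earlier results of these data known. Sequences come from RefSeq (GRCh38.p14), whose table held 41 of the 58 members.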

Additional observations from a re-analysis of the deposited data

How the results depend on the processing

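The number of members called depended on the filter and on single libraries. Against 0 higher and 0 lower in S1KO, DESeq2 gave 1 and 1, edgeR with no filter 1 and 25, limma on log2(TPM + 1) 0 and 19 and limma on log2(TPM + 0.1) 0 and 17 (0.78% and 16.4% of all genes). Leaving out 1 library, where the lone one left in a genotype is assumed to vary like the other genotype, gave 0 to 10 higher and 0 to 28 lower; without S1KO 1 or S1KO 2 0 of all genes were called, so the counts of 0 there say nothing of the members. The replicate numbers are not shown to pair the libraries (correlation of deviations 0.0233), and with the replicate block 0 members were called in either direction, as were 0 of all 15377 genes; INPP5D (-2.16, adjusted p = 0.0501) and P2RY12 (-1.44, adjusted p = 0.0873) were not called there. COL7A1 turned to 0.00333 with the stricter filter and to 0.64 with the effective length offset. On log2(TPM + 1) and log2(TPM + 0.1) COL8A1 turned to -0.22 and -0.38 and COL9A2 to -0.55 and -0.57. Leaving out 1 library, the log2 fold changes ran from -9.07 to 3.49 for COL1A1, -7.83 to 1.43 for FN1, -6.65 to 1.88 for COL4A1, -5.91 to 1.37 for COL6A3, -4.47 to 0.28 for TAGLN, -0.0295 to 3.24 for COL6A1, -0.33 to 4.42 for COL6A2 and -0.0907 to 0.0196 for COL7A1. Protein-coding transcripts only, in tests, was added after the data were seen. The cause of these changes was not tested. The number of members over 4-fold higher in WT 1 was 24 to 27 in 4 alternatives, with 28 over 2-fold and 25 over 10-fold. The members' share of nuclear signal moved to 0.0251%, 0.0325%, 0.468% and 0.0186% on TPM in S1KO 1, S1KO 2, WT 1 and WT 2, to 1.04% and 0.0324% in WT 1 and WT 2 with protein-coding transcripts only, and to 0.0605%, 0.0604% and 1.08% in S1KO 1, S1KO 2 and WT 1 with nuclear copies of mitochondrial genes left out as well, added after the data were seen. Nuclear depth was lower in S1KO (10792943 and 13471665 counts) than in WT (18323018 and 20861745), which limits members with few counts there.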
